A study of Mus musculus with 34 samples.

Results

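Cohesin, the ring-shaped complex that holds chromatin loops, was mapped here by ChIP-seq against its subunit SMC1 in mouse bone marrow-derived dendritic cells. The sites described are the SMC1 peaks of untreated wild-type cells (WT) that no WT CTCF peak touched and that at least 1 WT H3K27ac peak touched. They were 17085 of the 63638 WT SMC1 peaks (26.8%) and are called members below. Members were chosen on 3 sets of measured values, the WT peak calls for SMC1, CTCF and H3K27ac, so those values are given only as a description. The other WT SMC1 peaks fell into 12272 CTCF-free sites without H3K27ac, 5708 CTCF sites with H3K27ac and 28573 CTCF sites without H3K27ac.

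Cells came from C57BL/6 mice, given in the labels as 8 weeks old, and carried either the tamoxifen-activated CreER recombinase alone (CreER, here WT) or CreER with loxP-flanked Ctcf alleles (CreER;CTCFfl/fl, here KO). Marrow of both genotypes was cultured with GM-CSF for 6 days and received 4-OH tamoxifen on day 1, so WT cells also had active Cre. In the methods CreER is expressed from Rosa26, a locus active in most cell types, and CD11c+ cells were selected with beads at harvest. Each genotype was studied untreated or after 3 h of LPS at 100 ng/ml (WTLPS and KOLPS), and cells for STAT5 were given GM-CSF again for 15 min. Deletion was thus induced at the start of differentiation and was not limited to dendritic cells.

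CTCF is the zinc finger protein that stops cohesin on DNA and thereby anchors many loops. Cohesin is also found away from CTCF, at promoters and enhancers where it is loaded or held with transcription factors and co-activators. H3K27ac marks active promoters and enhancers, H3K4me3 marks promoters and H3K4me1 is typical of enhancers. STAT5 is the main transcription factor downstream of GM-CSF, and p65 (RelA) is the NF-κB subunit that enters the nucleus after LPS binds TLR4.

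The members below show the DNA under the SMC1 summits. Each line holds the base at the WT SMC1 summit and 50 bases to either side, read from the GRCm38 (mm10) reference on the plus strand, with matches to the searched motifs in capitals. The first 3 are the members of largest WT SMC1 fold that held a motif at a promoter, at a distal site with STAT5 and p65 (also the strongest with SMC1 in all 4 conditions), and at a distal site without a KO SMC1 peak.
Ccdc12 intron, promoter of the noncoding gene Gm35715, chr9:110676717-110676817, PU.1 motif: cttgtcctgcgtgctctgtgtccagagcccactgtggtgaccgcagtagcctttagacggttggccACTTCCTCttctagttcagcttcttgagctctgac
Rbpj intron, chr5:53509624-53509724, RUNX motif: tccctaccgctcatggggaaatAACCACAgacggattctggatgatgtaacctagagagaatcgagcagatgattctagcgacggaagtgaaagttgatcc
Ciita intron, chr16:10500851-10500951, PU.1 motif: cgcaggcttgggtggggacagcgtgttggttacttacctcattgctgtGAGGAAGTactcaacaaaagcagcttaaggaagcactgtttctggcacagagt

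The other 3 sequences were picked after their values had been seen, to show a κB motif (the NF-κB site) at the 2 members of largest WTLPS p65 fold that held one beside STAT5, and a STAT motif at the member of largest WT STAT5 fold that held one.
Upstream of Vmn1r39, chr6:66849024-66849124, κB motif: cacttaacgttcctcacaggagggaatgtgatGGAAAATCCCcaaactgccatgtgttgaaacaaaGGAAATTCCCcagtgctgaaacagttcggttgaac
Downstream of Fgd2, chr17:29394252-29394352, κB motif: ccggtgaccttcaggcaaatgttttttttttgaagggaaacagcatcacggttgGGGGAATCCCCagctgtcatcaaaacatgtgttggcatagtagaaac
Downstream of Fgd2, chr17:29395528-29395628, STAT motif: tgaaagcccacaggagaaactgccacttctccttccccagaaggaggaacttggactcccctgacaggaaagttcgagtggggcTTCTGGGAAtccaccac

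Every antibody and condition had a single peak list, so no difference between conditions could be tested against replicates. Shares are given with 95% Wilson intervals, which cover counting error only. The fold of a peak is its fragment pileup over the local background. The CTCF list of WT held 60537 peaks and that of KO 20151, so CTCF peaks were fewer but not absent after deletion. There were 57354 SMC1 peaks in WTLPS, 29965 in KO and 17241 in KOLPS. Background coverage recovered from the SMC1 peaks was 5.40, 5.77, 5.34 and 4.50 fragments per base (WT, WTLPS, KO, KOLPS), and from the H3K27ac peaks 1.17, 1.20, 0.748 and 0.801. The KOLPS SMC1 library was therefore the shallowest of its 4, as were both KO libraries for H3K27ac, and depth was weighed in the values below by thinning alone. As a check of the labelled cell type, 13 of 15 dendritic and myeloid surface marker genes had an H3K4me3 peak at the promoter in WT, against 0 of 10 T cell, 3 of 10 B cell and 3 of 9 erythroid genes.

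Members were weaker cohesin sites than those bound by CTCF. Their median WT SMC1 fold was 4.68 (quartiles 3.90 and 6.25), against 3.90 at CTCF-free sites without H3K27ac, 7.65 at CTCF sites with H3K27ac and 6.40 at CTCF sites without it. Of the members, 262 (1.53%) ranked in the top 10% of WT SMC1 peaks by fold. The median member was 517 bp wide, against 464 bp over all WT SMC1 peaks, and lay 7677 bp from the nearest WT CTCF peak. A member's strongest WT H3K27ac peak had a median fold of 7.82. At the edges of the rule, 801 members shared 50 bp or less with H3K27ac and 516 excluded CTCF-free sites lay within 50 bp of it. A CTCF peak lay within 50 bp of 37 members and within 1 kb of 1753. SMC1 −log10 p was under 8 at 2582 members, in a list that ends at 7.01.

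Most members were distal. The window of 2.5 kb around a gene's start on both sides (the start of its longest transcript), called a promoter, was touched by 4587 members (26.8%, 26.2 to 27.5%), against 20.7% of all WT SMC1 peaks and 41.1% of CTCF sites with H3K27ac. Another 6577 members (38.5%) lay in introns, 1244 (7.28%) touched exons and 4677 (27.4%) were outside genes. The 12498 distal members lay a median of 31051 bp from the nearest protein-coding start, and 19.5% of them were within 10 kb of one. Chromosome X held 116 members (0.679%), against 1.39% of all WT SMC1 peaks.

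Histone methylation differed between these places. A WT H3K4me1 peak touched 89.3% of members, against 57.7% of all WT SMC1 peaks, and 97.2% of distal members. It touched 78.0% of CTCF sites with H3K27ac and 73.5% of CTCF-free sites without H3K27ac. WT H3K4me3 peaks touched 34.5% of members against 18.4%, made up of 75.1% of promoter members and 19.6% of distal ones. CTCF sites with H3K27ac were above the members, at 48.5%. The Polycomb mark H3K27me3 was found at 78 members in WT (0.457%, background 4.84%), 41 in WTLPS (0.240%, background 2.67%), 54 in KO (0.316%, background 7.89%) and 11 in KOLPS (0.0644%, background 2%). Most peaks of that background had no WT H3K27ac. CTCF sites with H3K27ac were nearer the members, with H3K27me3 at 1.23%, 0.823%, 2.77% and 0.964%. CTCF peaks stayed rare at members outside WT, with 200 in WTLPS (1.17%, background 51.2%), 251 in KO (1.47%, background 21.9%) and 56 in KOLPS (0.328%, background 14.5%). Members had no WT CTCF peak by the rule, whereas most WT SMC1 peaks had one, so this background is not a like one. CTCF-free sites without H3K27ac were at 3.57%, 1.34% and 0.636%. Members were thus below them in WTLPS and KOLPS but near them in KO.

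SMC1 was found again at most members in KO. A KO SMC1 peak touched 11831 members (69.2%, 68.6 to 69.9%), against 34.5% of all WT SMC1 peaks. The share was 36.9% at CTCF-free sites without H3K27ac, 50.5% at CTCF sites with H3K27ac and 9.46% at CTCF sites without it. Members made up 26.8% of the WT SMC1 peaks. Of the 29965 KO SMC1 peaks, 40.1% lay over a member and 74.7% over a WT SMC1 peak of any class. After LPS in WT cells, 12327 members (72.2%, 71.5 to 72.8%) had an SMC1 peak, against 74.5% of all WT SMC1 peaks, 89.9% of CTCF sites with H3K27ac and 85.4% of CTCF sites without it. In KOLPS the count was 7596 (44.5%, 43.7 to 45.2%), against 21.1% overall. Members thus stood above the background in both KO lists and slightly below it in WTLPS. Thinning the WT peaks to the KOLPS coverage left 86.0% of members expected to pass the list's lowest −log10 p, while to the KO coverage it left 97.95%. With only peaks of −log10 p of at least 10 counted, the KOLPS share was 27.7%.

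**Figure D1:**
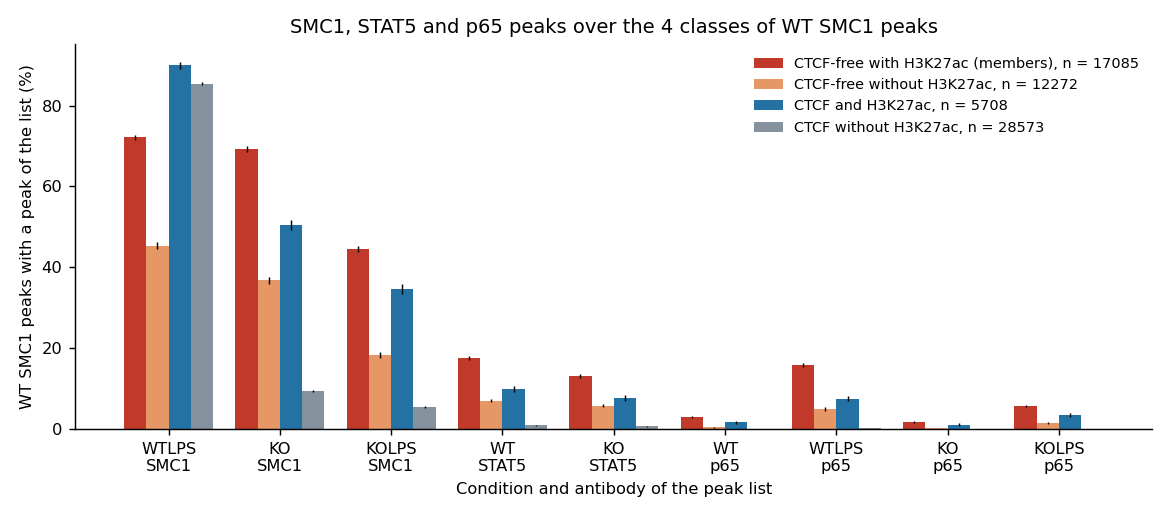
Percentage of WT SMC1 peaks in each of the 4 classes (bars, with 95% Wilson intervals) that a peak of each SMC1, STAT5 or p65 list touched. Members (red) had the largest share in every list except WTLPS SMC1, where both CTCF classes were above them.

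The strength of a site and its share in KO went together among members. Of the members with a WT SMC1 fold under 4, 38.6% had a KO SMC1 peak, then 63.7% at folds of 4 to 5, 88.3% at 5 to 7 and 98.8% at 7 to 10. All 827 members with a fold of 10 or more had a KO peak. Within each of these ranges the CTCF sites without H3K27ac had far lower shares, from 4.17% under 4 to 22.7% at 10 or more. CTCF sites with H3K27ac reached 67.5% at 10 or more. CTCF-free sites without H3K27ac were at 20.1% under 4 and at 96.9% at 10 or more, near the members in the upper ranges. In WTLPS the members were at 42.0% under 4 and at 99.4% at 7 to 10, where the lowest of the 4 classes was at 98.7%.

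**Figure D2:**
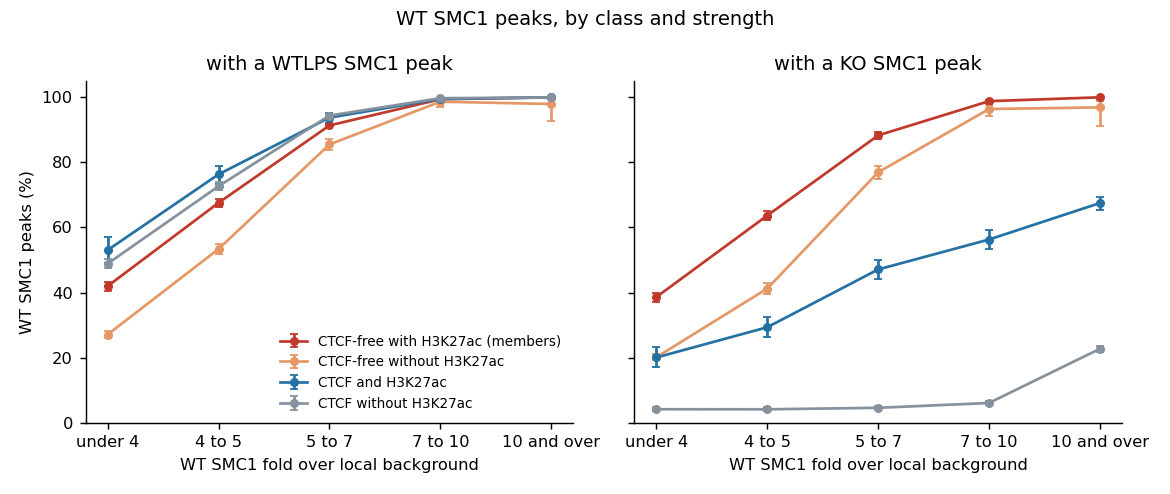
Percentage of WT SMC1 peaks (points, with 95% Wilson intervals) with an SMC1 peak in WTLPS (left) or KO (right), by range of WT SMC1 fold and class. In KO the CTCF-free classes climbed to 100% and 96.9% at folds of 10 and over, while the CTCF classes reached 67.5% and 22.7%.

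SMC1 was present in all 4 conditions at 6640 members (38.9%), against 17.7% of all WT SMC1 peaks. It was in WT alone at 2747 members (16.1%), against 19.6% of all WT SMC1 peaks, and in WT and WTLPS but neither KO list at 1937 (11.3%), a pattern seen at 43.5% of all WT SMC1 peaks. The 3325 members with SMC1 in every list but KOLPS made up 19.5%, against 11.5% of all WT SMC1 peaks. Members with SMC1 in all 4 lists had a median WT fold of 6.43, and those in WT alone 3.75. At the 6640 members the median SMC1 fold was 6.43 in both WT and WTLPS, 5.68 in KO and 4.91 in KOLPS. For the 1772 CTCF sites with H3K27ac that also had SMC1 in all 4 lists, the medians were 11.4, 10.3, 5.52 and 4.91. The KO fold was above the WT fold at 29.3% of the members and at 9.59% of those CTCF sites. Folds of different lists depend on their depth, so these medians stand side by side with no test.

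Most members had an H3K27ac peak in every condition taken alone. In WTLPS it was found at 13278 (77.7%, 77.1 to 78.3%), in KO at 13736 (80.4%, 79.8 to 81.0%), and the KOLPS count was 11384 (66.6%, 65.9 to 67.3%). Over all WT SMC1 peaks, most of which had no WT H3K27ac peak, the shares were 32.4%, 32.4% and 26.3%. The fairer comparison is with CTCF sites that had H3K27ac in WT, which were at 71.8%, 69.1% and 58.4%. H3K27ac was present in all 4 lists at 9781 members (57.2%) and in WT alone at 1387 (8.12%). When at least 50% of a member had to be covered by 1 peak, WTLPS was at 57.2%, KO at 53.9% and KOLPS at 34.4%, so the order of WTLPS and KO turned.

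All members had SMC1 and H3K27ac in WT by the rule, and the marks were often found together in the other conditions. These joint shares were counted for members only, so they have no background here. In KO, 10343 members (60.5%) had SMC1 and H3K27ac, 3393 (19.9%) had H3K27ac without SMC1, 1488 (8.71%) had SMC1 without H3K27ac and 1861 (10.9%) had neither. Among members with a KO SMC1 peak 87.4% had KO H3K27ac, against 64.6% of those without. The former also had larger median WT folds of SMC1 (5.47 against 3.90) and H3K27ac (8.63 against 6.90). The part of these folds in the shares was not tested. In KOLPS the group with H3K27ac and no SMC1 was larger, at 5154 (30.2%), and 4335 (25.4%) had neither. Both marks were in all 4 conditions at 5048 members (29.5%), whereas 169 (0.989%) had SMC1 in all 4 and H3K27ac in WT alone. H3K4me3 was at 31.5% of members in WTLPS (background 16.9%), 32.1% in KO (background 17.4%) and 25.5% in KOLPS (background 14.1%). CTCF sites with H3K27ac were above the members here too, at 46.6%, 46.8% and 41.4%. H3K4me1 was at 90.2% in WTLPS (background 58%), 87.6% in KO (background 56.4%) and 78.2% in KOLPS (background 46.2%). At CTCF sites with H3K27ac the H3K4me1 shares were 79.4%, 75.8% and 63.5%.

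Promoter and distal members differed in H3K27ac, and in SMC1 mainly in WTLPS. H3K27ac was found at 84.8% of promoter and 75.1% of distal members in WTLPS, 88.0% and 77.6% in KO, and 76.8% and 62.9% in KOLPS. SMC1 was at 66.4% of promoter and 74.3% of distal members in WTLPS, and at 70.4% and 68.8% in KO. In KOLPS it was at 45.5% and 44.1%. The WT H3K27ac fold was larger at promoter members (median 9.66 against 7.36) and the WT SMC1 fold smaller (4.37 against 4.84).

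STAT5 and p65 peaks were more frequent at members than over all WT SMC1 peaks. A WT STAT5 peak touched 3007 members (17.6%, 17.04 to 18.2%), against 7.4% of all WT SMC1 peaks and 9.85% of CTCF sites with H3K27ac. In KO the count was 2243 (13.1%, 12.6 to 13.6%), against 5.67%. Of the 8185 WT STAT5 peaks, 37.4% lay over a member and 58.4% over a WT SMC1 peak of any class. WTLPS p65 peaks touched 2724 members (15.9%, 15.4 to 16.5%), against 6.07%. Of the 5465 WTLPS p65 peaks, 51.1% lay over a member and 72.4% over a WT SMC1 peak of any class. Without LPS, p65 was at 532 members in WT (3.11%, background 1.11%) and at 302 in KO (1.768%, background 0.652%). In KOLPS it was at 982 (5.75%, 5.41 to 6.11%), against 2.18%, in a list of 1752 peaks. STAT5 and p65 met at 1049 members, which is 34.9% of the members with STAT5 and 38.5% of those with p65. Shares that need 50% of the member covered by 1 factor peak were lower, at 9.66% for WT STAT5, 7.45% for KO STAT5, 7.59% for WTLPS p65 and 1.76% for KOLPS p65. The median peak was narrower than the median member, at 351 bp for WT STAT5 and 329 bp for WTLPS p65. The WTLPS p65 share was 9.56% for peaks of −log10 p of at least 10.

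Of the members with WT STAT5, 2020 (67.2%, 65.5 to 68.8%) also had KO STAT5, and over all WT SMC1 peaks with STAT5 it was 67.0%. Of those with WTLPS p65, 804 (29.5%, 27.8 to 31.3%) also had KOLPS p65, against 28.7% overall. Members were thus near the background in how often a bound factor was found again in KO. Of the 532 members with p65 in untreated WT, 509 had it after LPS (95.7%), near the 94.7% over all WT SMC1 peaks with p65.

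SMC1 was found again most often at members with p65. Among the 2724 members with WTLPS p65, SMC1 was found in WTLPS at 99.3%, in KO at 92.3%, and at 86.7% in KOLPS, against 67.0%, 64.9% and 36.5% of members without it. For the 3007 members with WT STAT5 the shares were 90.2%, 85.9% and 70.6%, against 68.3%, 65.7% and 38.9% without. The 1049 members with both factors were at 99.7%, 95.1% and 94.0%. H3K27ac was at 94.9%, 93.8% and 91.0% of members with p65. Members with p65 also had larger WT SMC1 folds (median 6.87 against 4.53), which moves with these shares. Within the weakest range, under a fold of 4, SMC1 was in KO at 63.8% of 213 members with p65 and 37.5% of 4594 without, and in KOLPS at 55.4% and 16.0%. At folds of 5 to 7 the KO shares were 94.5% and 87.0%, and the KOLPS shares 85.6% and 51.0%. The KO shares nearly met at 7 to 10 (100% and 98.2%), and at 10 or more both were 100%. In KOLPS they were 95.9% and 78.7% at 7 to 10, and 99.8% and 94.4% at 10 or more. For STAT5 the KO shares under a fold of 4 were 48.4% and 37.8%.

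**Figure D3:**
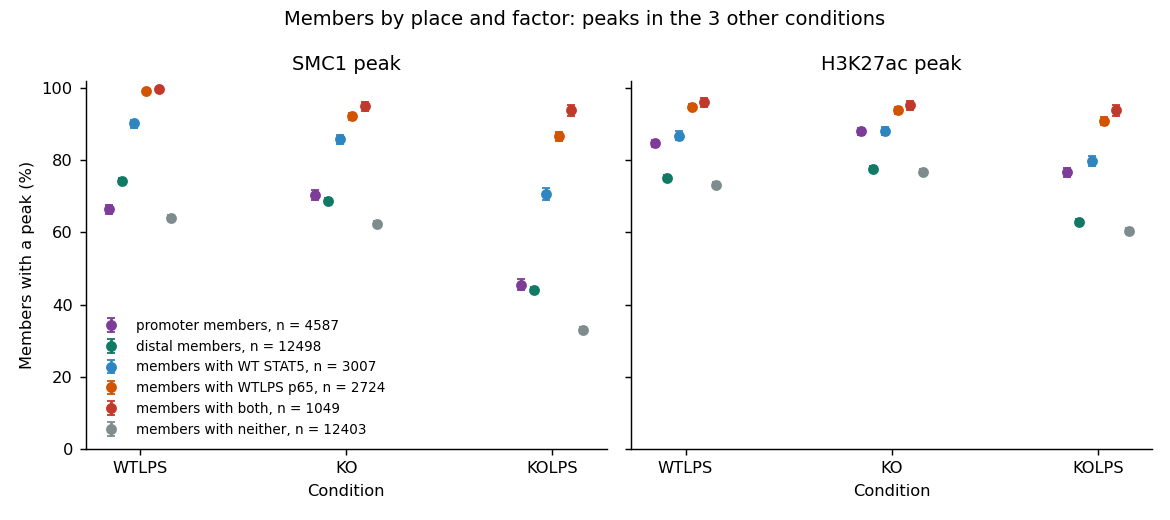
Percentage of members (points, with 95% Wilson intervals) with an SMC1 peak (left) or an H3K27ac peak (right) in WTLPS, KO and KOLPS, for members at promoters, at distal sites, and with or without STAT5 and p65. Members with both factors lay between 94.0% and 99.7% for SMC1, while members with neither were at 64.1%, 62.4% and 33.0%.

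SMC1 folds after LPS also differed by p65. Among members with SMC1 in all 4 lists, those with WTLPS p65 had a median SMC1 fold of 7.495 in WT and 8.72 in WTLPS, and the WTLPS value was the larger at 68.1% of them. Without p65 the medians were 6.09 and 5.62, and the WTLPS value was larger at 36.7%. In KO cells the medians with p65 were 6.47 and 6.19 without and with LPS, and the KOLPS value was larger at 43.4%, against 30.2% without p65. H3K27ac went the same way in WT, where the WTLPS fold was the larger at 64.3% of members with p65 and at 40.0% of those without. Members with and without p65 also differed in WT SMC1 fold, and the part of this in the values was not tested.

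Motifs were searched on both strands in these windows around each WT SMC1 summit, beside all WT SMC1 summits and windows of the same length 1 kb to the side of the members. TGANTCA (AP-1) was in 9.26% of member windows, against 5.45% of all windows and 3.27% to the side. GAGGAAGT (PU.1, the myeloid lineage factor) was in 6.02%, against 3.20% and 0.697%. TTCNNNGAA (STAT) was in 3.87%, against 2.97% and 3.08%. GAAANNGAA (IRF) was in 5.46%, against 3.90% and 3.48%. The κB motif was in 3.14%, against 1.55% and 1.18%. TGTGGTT (RUNX) was in 6.05% of member windows but in 7.01% of all windows, and in 2.35% to the side. TTGCNNAAT (C/EBP) was in 1.93%, against 1.31% and 1.0%. CCGGAAG (ETS) and GGGCGG (GC box) were in 1.01% and 4.16%, against 0.688% and 3.08%. They were in 2.29% and 10.3% of promoter members. Other classes shared part of this. CTCF-free sites without H3K27ac held AP-1 in 7.37% of windows, PU.1 in 5.46%, IRF in 4.92%, STAT in 3.25% and C/EBP in 1.83%. RUNX was more frequent there (7.41%), while κB (1.20%), ETS (0.522%) and the GC box (1.70%) were less so. At CTCF sites with H3K27ac, ETS (1.33%) and the GC box (5.73%) were more frequent than at members. The CTCF motif was in 3 member windows (0.0176%) and in 14.2% of the windows of CTCF sites without H3K27ac, 2 classes that CTCF peaks had defined. It was in 0.171% of windows of CTCF-free sites without H3K27ac and in 0.0702% of windows 1 kb to the side of members. A few matches shared bases, most often STAT with IRF at 17 members, STAT with κB at 12, and STAT or C/EBP with AP-1 at 9 each.

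STAT and κB motifs were more frequent where their factor was bound. A STAT motif was in 13.4% of the windows of members with WT STAT5, and a κB motif in 8.59% of those of members with WTLPS p65. In the other direction, 402 of 662 members with a STAT motif (60.7%) had a WT STAT5 peak and 234 of 536 with a κB motif (43.7%) a WTLPS p65 peak. PU.1 was in 6.84% of members with a KO SMC1 peak and in 4.17% of those without. AP-1 was in 10.2% and 7.19%, RUNX in 6.70% and 4.57%, and κB in 3.70% and 1.87%. The other searched motifs except CTCF differed the same way by less. Members with a KO SMC1 peak also had the larger median WT SMC1 fold (5.47 against 3.90), and its part was not tested. A match is a description of the letters only, and most members with either factor had no match in this window. Of all members, 35.1% held at least 1 of the motifs other than CTCF, against 25.9% of all WT SMC1 peaks.

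The 5 strongest promoter members had SMC1 in all 4 conditions. At Glipr1 (chr10:112000075-112001141) the SMC1 fold was 21.5 and 17.9 in WT without and with LPS, and 17.5 and 16.9 in KO. In the same order the H3K27ac fold was 32.2, 27.8, 18.3 and 13.9. A member (chr10:37336273-37340225) touched the promoter window of the noncoding gene Gm26535, with Marcks, an actin-binding kinase substrate, as the nearest protein-coding gene. This member had SMC1 folds of 20.3, 35.5, 17.7 and 21.1. Its p65 fold was 11.7 in WT and 44.2 in WTLPS, against 9.97 in KO and 34.1 in KOLPS. The LPS lists were the higher of each pair there for both proteins. The other 3 lay at the noncoding genes 5430437J10Rik, toward the prostaglandin receptor gene Ptger4, Gm35715 and Bach2it1, in Bach2, which encodes a transcriptional repressor. Their WT SMC1 folds were 17.5, 16.9 and 16.4. A WT H3K4me3 peak was at the Glipr1, 5430437J10Rik and Bach2it1 members (folds 12.5, 5.38 and 9.86). The Gm26535 and Gm35715 members had no H3K4me3 peak in WT, so they were promoter members by the window alone.

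The strongest distal member lay in an intron of Rad51b, a recombination gene (chr12:79633361-79634378), with SMC1 folds of 24.7, 20.5, 19.6 and 16.4 in WT, WTLPS, KO and KOLPS. An intron of Rbpj, which encodes the DNA-binding partner of Notch, held the next (chr5:53508994-53510256), with SMC1 folds of 23.4, 26.6, 17.8 and 14.4. Its STAT5 fold was 18.5 in WT and 16.3 in KO, and its p65 fold 25.1, 27.5, 11.1 and 21.5. The other 3 lay near Lgals3 (galectin-3), Ptger4 and the orphan receptor gene Gpr141, with WT SMC1 folds of 22.6, 22.6 and 21.9. All 5 had SMC1 in every condition, and the Gpr141 member had no H3K27ac peak in KOLPS.

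Among members with STAT5 and p65, the 10 largest WTLPS p65 folds ran from 43.7 to 67.9. The largest was downstream of Papss1, a sulfate-activation gene (chr3:131697792-131698823), with p65 folds of 34.4 in WT and 67.9 in WTLPS, against 25.8 in KO and 35.8 in KOLPS. A member 64735 bp upstream of Il6, the inflammatory cytokine, touched the promoter window of the noncoding gene Gm43386 (chr5:29947894-29949109). It had no H3K4me3 peak in any condition, and p65 folds of 13.4, 55.5, 9.97 and 18.7. Its SMC1 fold was 13.9, 26.5, 14.8 and 15.8, and its STAT5 fold was 30.9 in WT and 20.3 in KO. SMC1 was highest in WTLPS there, and so was p65, whose WTLPS fold had chosen the 10 members. A member 8076 bp upstream of the chemokine gene Cxcl16 (chr11:70467595-70468258) had SMC1 folds of 15.5, 17.3, 12.6 and 14.6. In an intron of Mtmr7, a phosphoinositide phosphatase gene (chr8:40594633-40595843), SMC1 was at 8.28, 23.2, 8.84 and 11.8 and H3K27ac at 17.9, 27.8, 12.6 and 25.5. The rest were nearest to Slx4ip, Fpr3 (a formyl peptide receptor), Borcs5, St3gal1 (a sialyltransferase), Marcks and Gsap. All 10 had SMC1 and H3K27ac in all 4 conditions.

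The 5 strongest members without a KO SMC1 peak had WT SMC1 folds of only 7.96 to 9.21. The member in Ciita, the master regulator gene of MHC class II (chr16:10500216-10501085), had SMC1 at 7.96 in WT and 5.62 in WTLPS and in neither KO list. Its H3K27ac fold was 17, 25.5, 23.5 and 12.8, and its STAT5 fold 30.9 in WT and 14.8 in KO. Acetylation and STAT5 were thus listed in KO where SMC1 was not. The others lay in Malrd1 upstream of Plxdc2, at the start of the olfactory receptor gene Olfr56, in an exon of Csf1r (the M-CSF receptor) and near Cradd, a death domain adaptor gene. The member near Plxdc2 had an SMC1 peak in KOLPS, with a fold of 3.82.

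Of the 169 members with SMC1 in all 4 conditions and H3K27ac in WT alone, 4 of the strongest by SMC1 are described here, with WT H3K27ac folds of 3.68 to 5.06. In an intron of Slc44a5, with Lhx8 as the nearest start (chr3:154182801-154183461), the SMC1 fold was 14.2, 8.43, 8.52 and 7.1. In an exon of Heatr1, a ribosome biogenesis gene (chr13:12411874-12412562), the SMC1 fold was 12, 8.72, 9.15 and 8.37, with STAT5 at 37.8 in WT and 22.6 in KO. The others lay 575658 bp upstream of Zeb2 and in an intron of the prostaglandin receptor gene Ptger3.

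**Figure D4:**
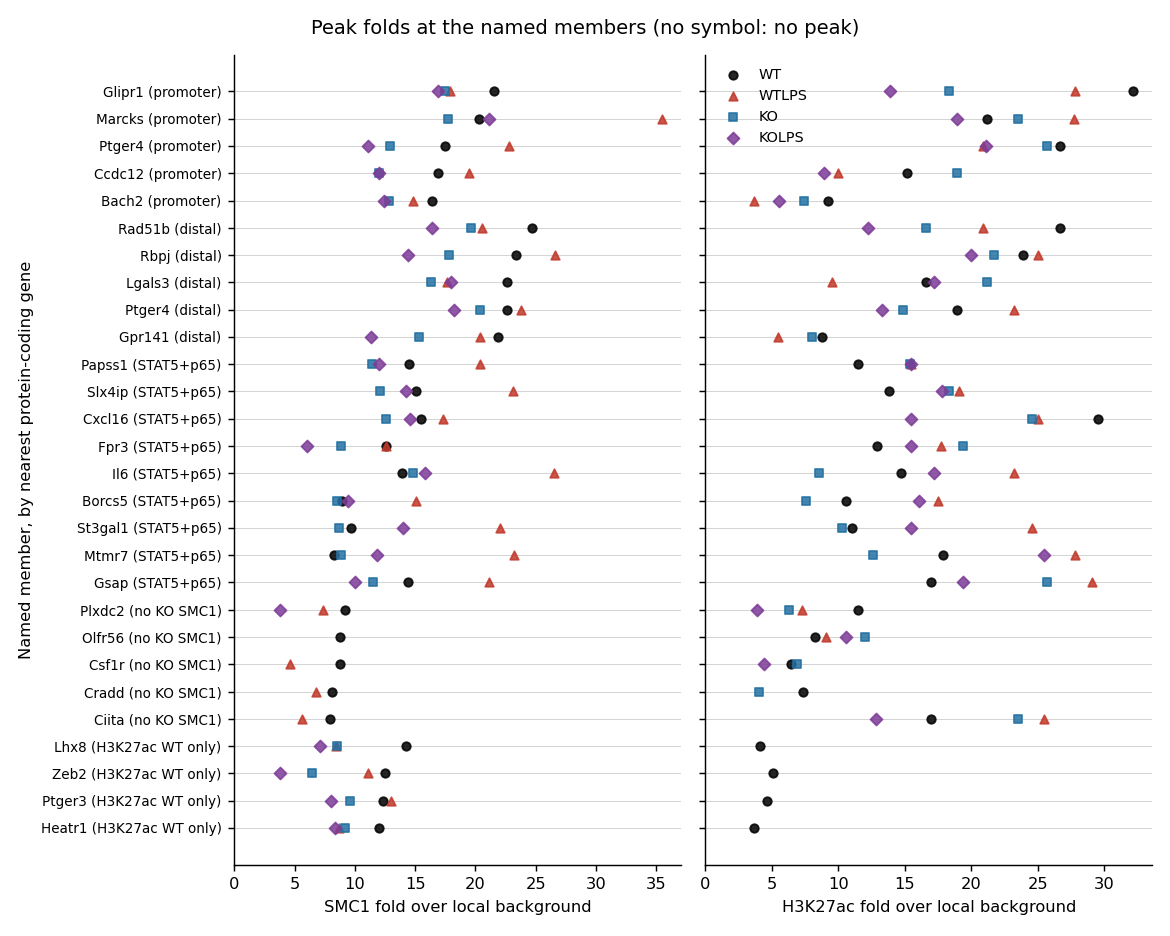
SMC1 fold (left) and H3K27ac fold (right) over local background at each named member, one symbol per condition, with no symbol where the list had no peak. The 4 members of the lowest group have 4 SMC1 symbols and a single H3K27ac symbol, at or under 5.06.

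Many members lay close to others. Joined across gaps of up to 12.5 kb, they formed 8112 groups, of which 4607 held 1 member and 712 held 5 or more. Those 712 groups held 31.4% of members. The largest group (chr10:96261254-96396279) held 36 members and touched no protein-coding gene. SMC1 was found in WTLPS at 27 of them, in KO at 25, and at 18 in KOLPS. Over all members SMC1 was at 72.2%, 69.2% and 44.5% in these lists, and H3K27ac at 77.7%, 80.4% and 66.6%. STAT5 was at 17.6% of all members in WT and 13.1% in KO, and WTLPS p65 at 15.9%. No group was tested against these shares. The next 2 groups, of 32 members each, were at chr10:44589040-44704628, which touched no protein-coding gene, and at Asap1 (chr15:64176280-64287839), where all 32 had H3K27ac in WTLPS, KO and KOLPS while SMC1 was in KO at 18. A group of 31 (chr12:25239788-25357211) also touched none. The group at Nabp1 (chr1:51471271-51556037) held 26 members, 6 with WT STAT5 and 0 with p65 in any list, and KO H3K27ac at 15. A group of 25 members covered Plgrkt, Cd274 and Pdcd1lg2, the last 2 being the genes of the checkpoint ligands PD-L1 and PD-L2 (chr19:29364233-29470460). SMC1 was at 19 of these 25 in KO, and STAT5 at 9 in WT and 6 in KO. The other 4 groups touched Rbpj (22 members), Cd200r3 (22), the antiproliferative gene Btg1 (21), and Golph3l, Ensa and the survival gene Mcl1 (21).

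By nearest start within 100 kb, 10312 distal members fell to 3871 protein-coding genes, and 2800 genes had a member at the promoter. The 5 genes with the most distal members were named after their values were seen. They were Rbpj (28), Btg1 (27), the transcriptional co-regulator gene Irf2bp2 (22), Nabp1 (21) and the zinc finger factor gene Klf6 (20). In this order WTLPS p65 was at 8, 3, 0, 0 and 8 of their distal members, and at 17.2% of all distal members.

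A member was at the promoter of 12.8% and among the distal sites of 17.7% of the 21911 protein-coding genes. The shares were 28.3% and 28.4% for the 9437 genes with H3K4me3 and H3K27ac at the promoter in WT, which is the nearer background for expressed genes. Of 16 dendritic and myeloid transcription factor genes, 11 had a promoter member and 13 a distal one. Irf4 had 3 promoter and 8 distal members, Batf3 2 and 8, Id2 1 and 9, and Runx3 0 and 10. These encode factors used by dendritic cell subsets.

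Of 18 genes of the GM-CSF and STAT5 pathway, 10 had a promoter member and 16 a distal one. Jak2, the kinase at the GM-CSF receptor, had 1 and 16, the survival gene Mcl1 1 and 10, the kinase gene Pim1 3 and 5, and Csf2rb2, a receptor chain, 2 and 4. In the TLR4 and NF-κB list of 27 genes, 12 had a promoter member and 17 a distal one. Tlr4, the LPS receptor, had 3 and 12. Tnfaip3, which encodes the NF-κB inhibitor A20, had 0 and 15, of which 6 had WTLPS p65. Rel had 1 and 10 and Nfkb1 1 and 8, both NF-κB subunits. WTLPS p65 was at 1 distal member of Tlr4, 2 of Rel and 3 of Nfkb1, and at 17.2% of all distal members. These lists were chosen for this tissue, and their shares stand above the background without a test.

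Of 23 cytokine and chemokine genes induced by LPS, 8 had a promoter member (34.8%) and 13 a distal one (56.5%). Il6 had 7 distal members, 4 of them with WTLPS p65, and the chemokine gene Ccl5 had 5, also 4 with p65. Over all distal members 17.2% had WTLPS p65. Il1b had 2 promoter and 4 distal members and Ccl17 2 and 3, with WTLPS p65 at 1 distal member each. Of 16 antigen presentation and costimulation genes, 13 had a promoter member and 12 a distal one, led by Pdcd1lg2 with 2 and 13, Icosl with 2 and 8, Cd83 with 2 and 7 and Cd86 with 2 and 6. Of 15 surface marker genes 13 had each kind, with 16 distal members at Ptprc (CD45), 7 at Sirpa, 6 at Itgb2 and 5 at Itgax (CD11c).

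The lists of other cell types and functions varied. Distal members fell to 4 of 10 T cell marker genes (40%), namely Cd3d, Cd4, Cd5 and Cd8a, above the 28.4% of genes with active promoters, and 0 of the 10 had a promoter member. A promoter member was found at Vpreb1 alone of 10 B cell genes. None of 9 erythroid genes had a member, and of 15 neuron and muscle genes Myog alone did. Of 15 cohesin genes 3 had a promoter member, Nipbl and Mau2 for the loader and Stag2 for a subunit. Of 20 housekeeping genes 8 had a promoter member (40%, against 28.3% of genes with active promoters), among them Actb, Ywhaz and B2m, and 5 a distal one.

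**Figure D5:**
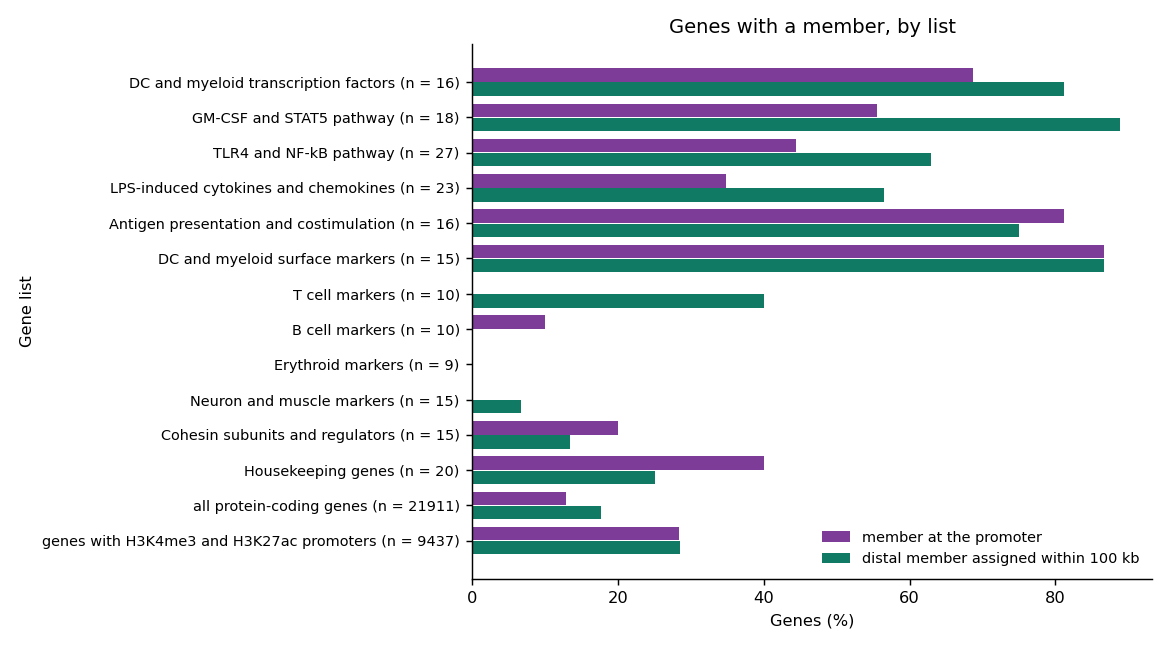
Percentage of the genes of each list with a member at the promoter (purple) or with an assigned distal member (green), with all protein-coding genes and those with H3K4me3 and H3K27ac promoters at the bottom. Dendritic cell and signalling lists lie above both background bars, as do housekeeping genes for promoters and T cell genes for distal members (40% each), while the B cell, erythroid and neuron or muscle lists lie at or below 10%.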

How the data were processed

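The 30 deposited ChIP-seq peak lists were used, 1 for each antibody and condition. Per the labels and methods, the authors made libraries by tagmentation, aligned read pairs to mm10 and called peaks against input. The submitters' processing notes name BWA 0.7.12, Picard 1.77, MACS2 2.1.2 and deepTools 3.1.3, while the study's methods give other versions. The methods describe peak calling on individual replicates, the study's general statement is that reproducible replicates were combined, and the labels do not say which of these a deposited list is. The authors deposited each peak's fold, which is a ratio of pileup to local background, and its −log10 p-value and q-value. H3K27me3 and H3K4me1 lists are broad peaks, and peak names in the H3K4me1 lists carry another antibody supplier than the labels. Only the names of the p65 files mention a blacklist filter. The STAT5 antibody number in the methods differs from the one in the labels.

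Members and gene lists were chosen with earlier results of these data known. Peaks were matched when they shared at least 1 bp, with pandas 2.3.3 and numpy 2.4.6 in Python 3.11.15. Genes came from GENCODE M21 and sequences from GRCm38, within whose chromosome lengths all peaks lay. Coverage was recovered by searching fragment counts from 1 to 200 for one that matched a peak's fold and its −log10 p within 0.002. This worked for at least 99.96% of narrow peaks with −log10 p under 25, and was tested on simulated data. Named were the 4 genes of each list with the most members, the 10 groups with the most members, the 10 members with STAT5 and the largest WTLPS p65 folds, and the 5 strongest promoter members, distal members, members without KO SMC1 and members with SMC1 in all 4 conditions but H3K27ac in WT alone. Of 197 list entries 3 had no match. Of the named items, 1 member and 1 list gene are not reported here. The other settings tried were the overlap, the −log10 p threshold, the promoter width, distance to CTCF, chromosomes X and Y, coverage and motif window. The 4 inputs were not used here.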

Additional observations from a re-analysis of the deposited data

Results flagged for a closer look

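The share of members with an H3K4me1 peak was 0.942 percentage points higher in WTLPS than in WT, but differed by -9.37 percentage points between KOLPS and KO. Over all WT SMC1 peaks the share was 57.7% in WT and 58% in WTLPS, and 56.4% in KO against 46.2% in KOLPS, so the members were near this background. It was picked out because the LPS difference had opposite signs in the 2 genotypes. With 1 list per condition the difference between genotypes was not tested. The KOLPS H3K4me1 list also held fewer peaks in all, 79120 against 93525 in KO, and its part in the value was not tested.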

How the results depend on the processing

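No paired analysis was possible because each antibody and condition had 1 peak list and no test was run. Leaving out chromosomes X and Y moved none of 12 values beyond its counting interval, and leaving out members with a CTCF peak within 1 kb moved 1, the promoter share, to 25.5%. The promoter share was 18.03% with promoters of 1000 bp to either side and 19.6% with protein-coding promoters alone. Peaks of −log10 p of at least 10 in all 3 WT lists left 8516 members, and 12099 had at least 50% of their length under 1 H3K27ac peak. With 50% of the member covered by 1 peak, the SMC1 shares in WTLPS, KO and KOLPS were 66.0%, 58.8% and 30.7%, the H3K27ac shares 57.2%, 53.9% and 34.4%, the STAT5 shares in WT and KO 9.66% and 7.45%, and the p65 shares in WTLPS and KOLPS 7.59% and 1.76%. With peaks of −log10 p of at least 10 the same shares were 55.6%, 49.3%, 27.7%, 55.6%, 58.5%, 42.0%, 13.1%, 10.1%, 9.56% and 4.70%. Fewer peaks count under both settings by their construction. Weighting members by their chance to pass at the other coverage gave 70.0% for SMC1 in KO and 49.0% in KOLPS, and 82.4% and 68.2% for H3K27ac. WTLPS was not thinned, since WT had the lower coverage. Windows of 100 bp to either side held STAT, AP-1 and PU.1 motifs at 7.72%, 15.9% and 10.3% of members. Thinning keeps the same fragments, so it does not show the spread between 2 libraries, and weak members near the list's threshold can be missed in any second list.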

Other observations

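Although CTCF was deleted, 251 members (1.47%) had a CTCF peak in KO, and none had one in WT by the rule. The KO share was 1.34% at CTCF-free sites without H3K27ac and 21.9% over all WT SMC1 peaks. Members were thus near the other CTCF-free sites. Of the 251 members, 168 were promoter members (3.66% of promoter members) and 83 distal ones (0.664% of distal members). In WTLPS the shares at promoter and distal members were 1.46% and 1.06%.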
